A study of Bos taurus with 56 samples.

Results

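Semaphorins, SLITs, ephrins and netrins are ligands that were first described as guidance cues for growing axons and that are also used by epithelia, where they act on cell adhesion, cell shape and the spacing of neighbouring cells. Semaphorins signal through plexins, with neuropilins as co-receptors for the secreted class 3 members. SLITs act on ROBO receptors, ephrins on EPH receptor tyrosine kinases in cells that touch each other, and netrins on DCC, neogenin and the UNC5 receptors. The oviduct epithelium that makes them here is a single layer of ciliated and secretory cells, and its 2 regions have different tasks: the ampulla is the site of fertilization, and the isthmus, next to the uterus, holds the early embryo.

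The genes were taken by name: every symbol in the count table that starts with SEMA, PLXN, NRP1, NRP2, ROBO, EPHA, EPHB, EFNA, EFNB, NTN or UNC5, with SLIT1, SLIT2 and SLIT3. This gave 68 of the 31903 genes in the table, and the 52 with a mean of at least 1 CPM (gene counts scaled to library size, here with TMM factors) over the 12 conditions were compared. They were 17 of 19 semaphorins, 7 of 7 plexins, 2 of 2 neuropilins, 1 of 3 SLITs, 2 of 4 ROBO receptors, 6 of 8 ephrins, 9 of 13 EPH receptors, 3 of 6 netrins and 5 of 6 symbols starting with UNC5. Of the latter, UNC50, a protein of the Golgi, and UNC5CL share the name but are not netrin receptors. UNC5D (mean 1.33 CPM) and SEMA7A (1.47 CPM) were just inside the threshold, and SEMA5B (0.761 CPM) and EPHA4 (0.752 CPM) just outside it. The 16 genes below 1 CPM included SLIT1, SLIT2 and ROBO4.

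The libraries came from 14 Holstein animals that were not inseminated: 5 heifers without a previous calf (nulliparous), 5 cows kept dry from calving on (non-lactating) and 4 milked cows (lactating), both cow groups about 60 days post-partum. All 14 had their cycle synchronized with an intravaginal progesterone device, the prostaglandin analogue cloprostenol and the GnRH analogue buserelin, and tissue was taken at Day 3 of the cycle. From each animal, epithelial cells were scraped from the ampulla and the isthmus of the oviduct on the side of the corpus luteum (ipsilateral) and on the other side (contralateral), which gave 56 libraries and 12 conditions of 4 or 5 animals. The scraped material was a mixture of cells, so that fewer cells of a type and less RNA per cell cannot be told apart. Animals are called by group and letter.

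Depth on genes was between 1901454 and 6836850 counts per library, with a median of 4931502.5, and these made up 8.66% to 13.7% of the counted alignments. Epithelial (849.1 to 1891 CPM summed over 6 genes) and ciliated (3129 to 8027 CPM over 9 genes) markers were abundant in every library. Secretory markers (4 genes) varied widely, at 236.9 to 18870 CPM in the contralateral isthmus and 2939 to 36310 CPM in the contralateral ampulla. On the ipsilateral side they were at 305.6 to 15180 and 2549 to 14740 CPM. Red blood cell markers reached at most 0.907 CPM. Of these, HBA and HBB had no count in any of the 56 libraries, so the low value cannot show that blood was absent. Among the ipsilateral ampulla libraries, 2 carried the animal number of a cow of the other post-partum group. Over 200 genes that differ between animals, each resembled a cow of the group given in its own label (r = 0.7 and 0.85, against 0.0368 and 0.0104 for the cow whose number it carried). The libraries of animal B of the heifers and animal B of the non-lactating cows each correlated more with the other of the pair than with the labelled animal (0.687 against 0.35, and 0.536 against 0.456). Results that use the ipsilateral ampulla are therefore given with and without these 4 libraries where the call changed.

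The members differed mainly between regions and, in the isthmus, between sides, as the map of condition means over the 52 genes shows.

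**Figure D1:**
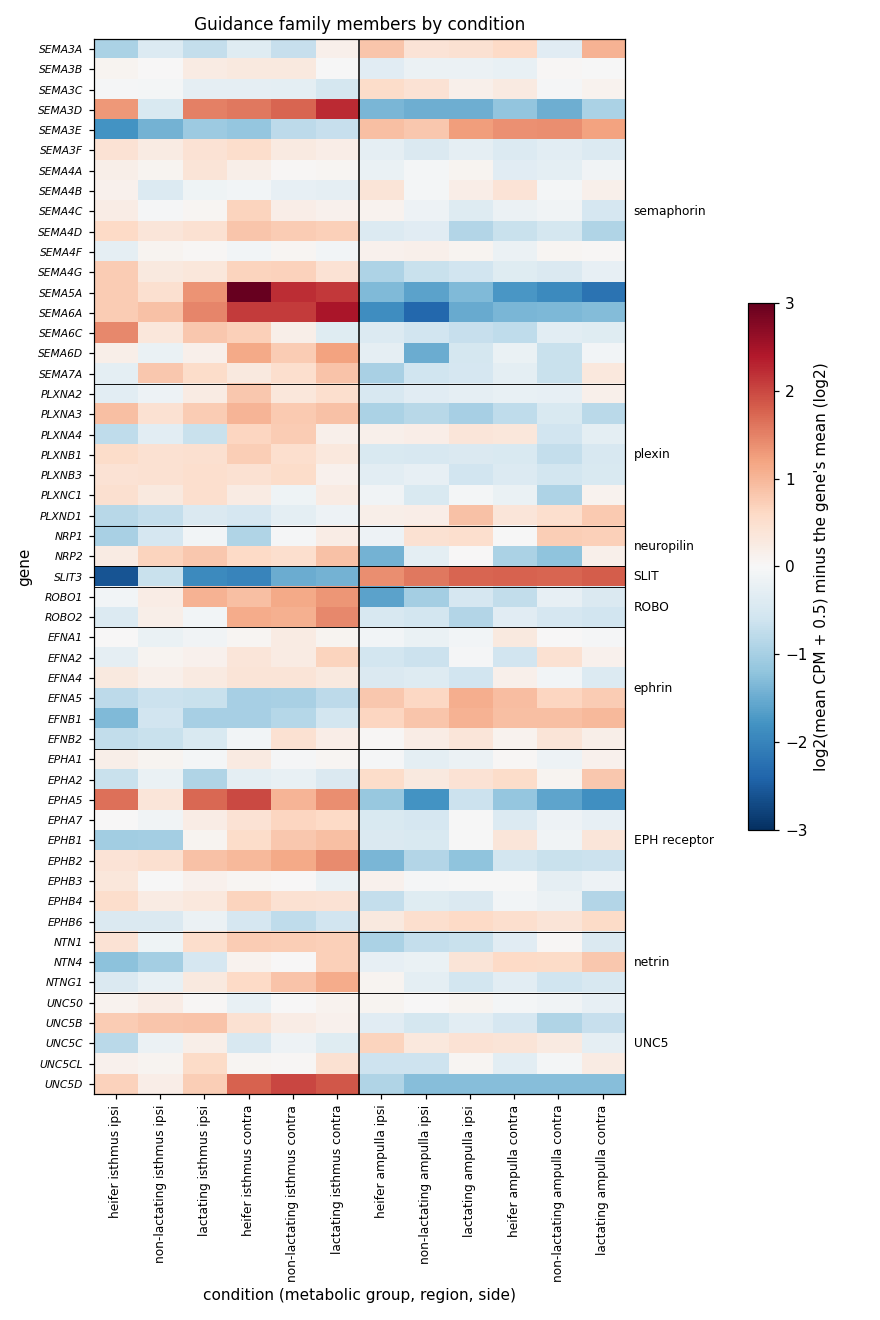
Mean level of each of the 52 compared genes (rows, grouped by family) in the 12 conditions (columns, isthmus left of the line and ampulla right of it), as log2(mean CPM + 0.5) minus the mean of that gene over the conditions. SEMA5A, SEMA6A, EPHA5 and UNC5D are red in the isthmus columns, and SLIT3, SEMA3E, EFNA5 and EFNB1 are red in the ampulla columns.

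The first comparison asked how the epithelium of the isthmus differed from that of the ampulla. On the ipsilateral side 37 of the 49 members tested were DEGs (adjusted p under 0.05, edgeR quasi-likelihood test), 22 higher in the isthmus and 15 higher in the ampulla, where 51.6% of all genes tested were DEGs and 25.9% were DEGs that were higher in the isthmus. On the contralateral side 34 of 49 were DEGs, 23 higher in the isthmus and 11 in the ampulla, with 45% of all genes called and 22.3% called higher in the isthmus. The members' share of DEGs was thus above that of all genes on both sides, with no test of that excess. The median log2 fold change (isthmus minus ampulla) was 0.27 and 0.48 over the members on the ipsilateral and contralateral sides, and -0.0049 and -0.0098 over all genes tested. On both sides 30 members were DEGs in the same direction, 19 higher in the isthmus and 11 higher in the ampulla, and 0 were DEGs in opposite directions. Without the 4 libraries named above, 36 members were DEGs on the ipsilateral side, with EPHA7 lost (edgeR adjusted p = 0.0807 against 0.0405).

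**Figure D2:**
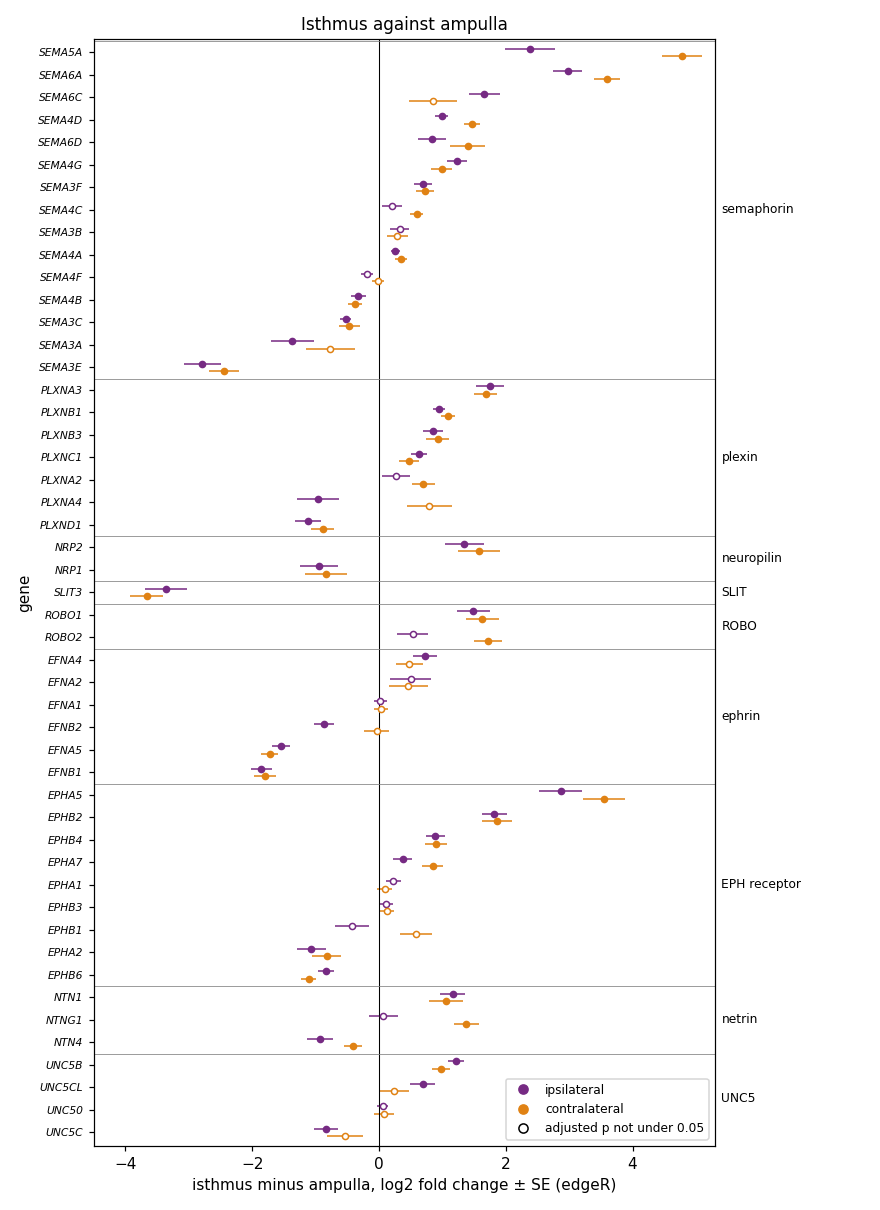
Log2 fold change of isthmus minus ampulla (x axis, edgeR, with its SE) for the 49 members tested, by family, on the ipsilateral (purple) and contralateral (orange) side; each side compares 14 with 14 libraries and open symbols have an adjusted p that is not under 0.05. SEMA5A, SEMA6A and EPHA5 lie farthest to the right and SLIT3 and SEMA3E farthest to the left on both sides.

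SLIT3 was high in the ampulla and its receptor ROBO1 in the isthmus. SLIT3, a secreted repellent, was at 17.8 to 47 CPM in the 14 ipsilateral ampulla libraries (median 35.8) and at 0 to 11.2 CPM in the ipsilateral isthmus (median 2.14). On the contralateral side the ranges were 22.5 to 54.5 CPM in the ampulla and 0.217 to 8.8 CPM in the isthmus. The regions did not overlap on either side, and the log2 fold changes of -3.36 ± 0.33 (SE, n = 14 per region, edgeR adjusted p = 1.51e-09) and -3.66 ± 0.26 (edgeR adjusted p = 1.81e-12) were the most negative among the members.

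ROBO1, a receptor for SLIT ligands, was higher in the isthmus by 1.49 ± 0.26 (log2, SE, edgeR adjusted p = 2.35e-05) on the ipsilateral side and by 1.63 ± 0.26 (edgeR adjusted p = 6.13e-06) on the contralateral side. Its ranges overlapped, at 5.3 to 41.9 CPM in the ipsilateral isthmus and 1.18 to 13.2 CPM in the ipsilateral ampulla. ROBO2, the other ROBO receptor above 1 CPM, was at 10.5 to 48.3 CPM (median 28.2) in the contralateral isthmus and at 3.63 to 14.1 CPM (median 9.2) in the contralateral ampulla, a log2 fold change of 1.72 ± 0.23 (SE, edgeR adjusted p = 2.65e-07). On the ipsilateral side its log2 fold change was 0.53 ± 0.24 (edgeR adjusted p = 0.0654, or 0.0413 with the animal as a block).

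Several other ligands and a known receptor of each were high in the same region. SEMA4D, a transmembrane semaphorin, and PLXNB1, its main plexin, were both DEGs that were higher in the isthmus on both sides. SEMA4D was at 46.2 to 83.2 CPM in the ipsilateral isthmus and 19.8 to 44 CPM in the ipsilateral ampulla, and PLXNB1 at 122 to 225 CPM and 67 to 116 CPM, so that neither overlapped between the regions, which also held on the contralateral side. Their log2 fold changes were 0.99 ± 0.10 and 1.47 ± 0.13 (SEMA4D, ipsilateral and contralateral) and 0.94 ± 0.10 and 1.09 ± 0.11 (PLXNB1).

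SEMA3E, a secreted semaphorin that binds PLXND1 without a neuropilin, was higher in the ampulla together with that receptor. SEMA3E was at 3.48 to 14.6 CPM in the ipsilateral ampulla and 0.328 to 4.44 CPM in the ipsilateral isthmus, and at 8.31 to 21.1 against 0.651 to 4.57 CPM on the contralateral side, where the regions did not overlap. The log2 fold changes were -2.79 ± 0.29 and -2.45 ± 0.23 for SEMA3E, and -1.12 ± 0.21 and -0.89 ± 0.18 for PLXND1. Markers of endothelium, a cell type known to express PLXND1, were also higher in the ampulla: the 7 listed genes in the table summed to 100.6 to 384.5 CPM in the ipsilateral ampulla and 13.7 to 59.1 CPM in the ipsilateral isthmus, with 4 of 5 tested lower in the isthmus on each side. Most of that sum was KDR, with means of 149.9 and 209.7 CPM in the ipsilateral and contralateral ampulla against 14.2 and 35.4 CPM in the isthmus. EMCN (23.6 and 22.3 against 4.37 and 1.38 CPM), TEK (16.9 and 20.2 against 8.9 and 11.6 CPM) and PECAM1 (4.06 and 5.7 against 1.97 and 3 CPM) followed the same direction. VWF was at 4.63 to 6.09 CPM in the 4 tissues, and ERG and TIE1 were at 0.33 CPM or less. The part of endothelium in these differences was not tested.

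The neuropilins were divided between the regions. NRP2, the co-receptor preferred by SEMA3F, was higher in the isthmus by 1.34 ± 0.31 and 1.58 ± 0.33 (log2, ipsilateral and contralateral), and SEMA3F itself by 0.69 ± 0.14 and 0.72 ± 0.14. NRP1, the co-receptor of SEMA3A, was higher in the ampulla, with log2 fold changes of -0.95 ± 0.30 (edgeR adjusted p = 0.00929) and -0.84 ± 0.33 (edgeR adjusted p = 0.0386, or 0.0689 with the animal as a block). SEMA3A was a DEG on the ipsilateral side (-1.37 ± 0.34), while on the contralateral side its value was -0.77 ± 0.38 (edgeR adjusted p = 0.104). SEMA3C, another neuropilin ligand, was higher in the ampulla by a smaller amount, with log2 fold changes of -0.53 ± 0.09 and -0.47 ± 0.17. The contralateral SEMA3C call was lost with the animal as a block (edgeR adjusted p = 0.0656). Both contralateral calls also depended on single animals: that of NRP1 was lost without heifer A, B or E or without non-lactating cow A, C, D or E (edgeR adjusted p up to 0.0817), and that of SEMA3C without heifer C or non-lactating cow A (up to 0.0573).

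SEMA6A and SEMA5A, which are membrane-bound, and the receptor EPHA5 had the largest log2 fold changes towards the isthmus on both sides among the 49 members that passed the filter of the edgeR test. SEMA6A, a ligand of PLXNA2 and PLXNA4, was at 27.9 to 151 CPM in the ipsilateral isthmus (median 71.3) and 3.04 to 21.8 CPM in the ipsilateral ampulla (median 7.59). On the contralateral side it was at 67.9 to 283 CPM in the isthmus and 7.72 to 24.9 CPM in the ampulla. Every isthmus library was above every ampulla library on both sides, and the log2 fold changes were 2.98 ± 0.23 (edgeR adjusted p = 1.24e-11) and 3.59 ± 0.20 (edgeR adjusted p = 6.65e-15). Its receptor PLXNA4 was instead higher in the ipsilateral ampulla (-0.97 ± 0.33, edgeR adjusted p = 0.0155). On the contralateral side PLXNA4 was not called (0.79 ± 0.35, edgeR adjusted p = 0.0663). PLXNA2 was higher in the contralateral isthmus (0.70 ± 0.18, edgeR adjusted p = 0.00243) and not called ipsilaterally (0.27 ± 0.22, edgeR adjusted p = 0.32).

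SEMA5A, which binds PLXNB3, was at 12.4 to 147 CPM (median 57.3) in the contralateral isthmus and 0 to 3.83 CPM (median 2.87) in the contralateral ampulla, with no overlap and a log2 fold change of 4.77 ± 0.32. On the ipsilateral side the isthmus libraries were at 2.93 to 69.5 CPM and the ampulla libraries at 1.13 to 6.69 CPM, with some overlap and a log2 fold change of 2.38 ± 0.40. SEMA6D was higher in the isthmus by 0.84 ± 0.22 and 1.40 ± 0.28 (log2, ipsilateral and contralateral), and SEMA4G by 1.24 ± 0.16 and 0.99 ± 0.16. Of the other plexins, PLXNA3 was higher in the isthmus by 1.75 ± 0.22 and 1.68 ± 0.18 with no overlap between regions on either side.

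**Figure D3:**
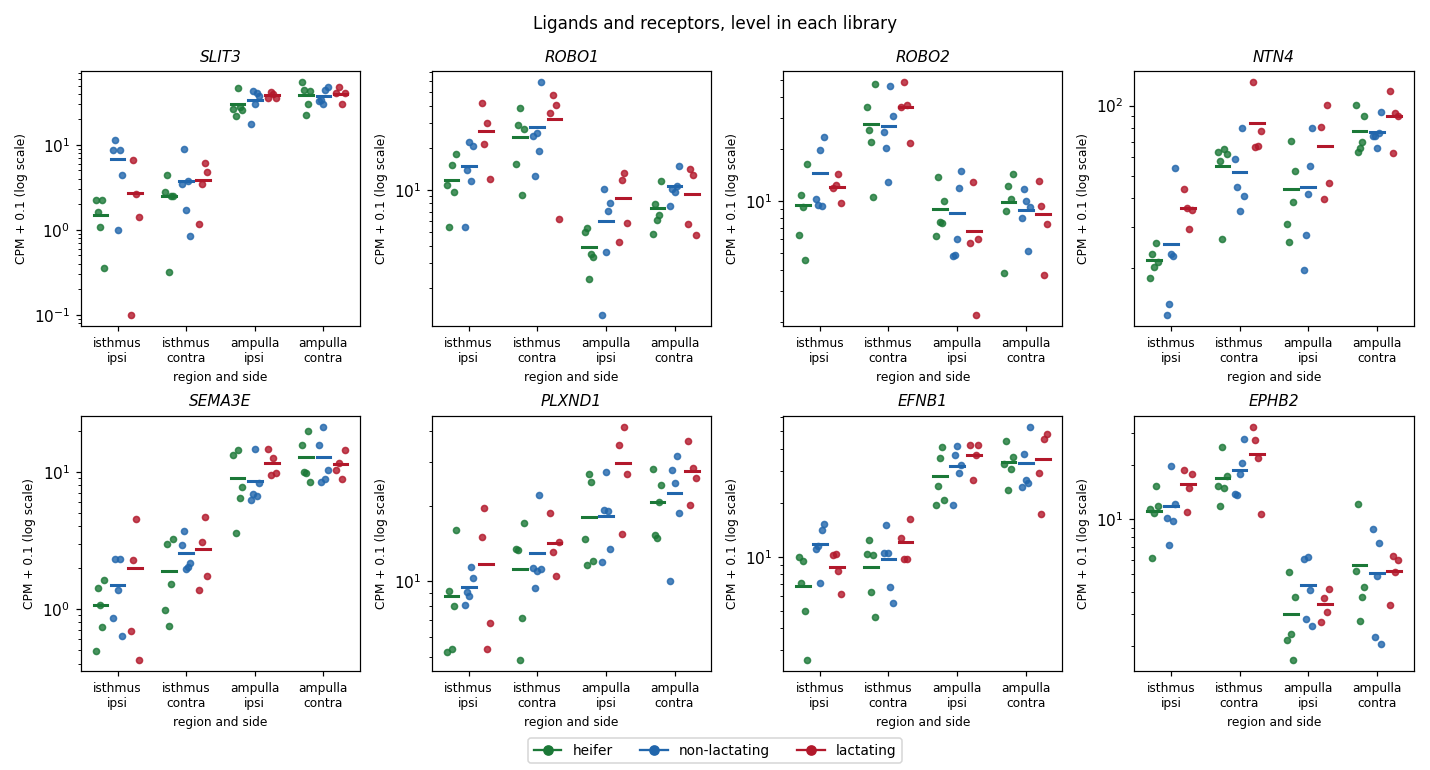
Level of 8 ligands and receptors in each library (y axis, CPM + 0.1, log scale) by region and side, with heifers in green, non-lactating cows in blue and lactating cows in red; points are libraries (n = 5, 5 and 4 per condition) and bars are group means. SLIT3, SEMA3E and EFNB1 are high in the ampulla, and ROBO1, EPHB2 and, on the contralateral side, ROBO2 are high in the isthmus.

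Of the 6 ephrins, 3 were DEGs higher in the ipsilateral and 2 in the contralateral ampulla, and 1, EFNA4, was a DEG higher in the ipsilateral isthmus. Its log2 fold changes were 0.73 ± 0.19 (ipsilateral, edgeR adjusted p = 0.00162) and 0.48 ± 0.21 (contralateral, edgeR adjusted p = 0.0672). On each side 4 EPH receptors were DEGs higher in the isthmus. Of all genes tested, 51.6% and 45% were DEGs on the 2 sides, and 25.9% and 22.3% were DEGs higher in the isthmus. EFNB1, a transmembrane ephrin that activates EPHB receptors, was at 19.3 to 42.1 CPM in the ipsilateral ampulla and 2.57 to 15 CPM in the ipsilateral isthmus, and at 17.2 to 52.7 against 4.49 to 16.2 CPM on the contralateral side. EFNA5, an ephrin anchored by a lipid, was at 65.6 to 143 CPM in the ipsilateral ampulla and 17.3 to 57.9 CPM in the ipsilateral isthmus. Neither ephrin overlapped between the regions on either side. The log2 fold changes were -1.85 ± 0.17 and -1.80 ± 0.18 for EFNB1 and -1.54 ± 0.14 and -1.73 ± 0.13 for EFNA5.

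EPHA5, a receptor of A-type ephrins, was at 3.33 to 19.9 CPM in the contralateral isthmus and 0 to 2.08 CPM in the contralateral ampulla. On the ipsilateral side the regions overlapped, at 1.62 to 19.9 CPM in the isthmus and 0 to 4.51 CPM in the ampulla. Its ampulla counts were low, at 0 to 24 (ipsilateral) and 0 to 10 (contralateral) per library. The log2 fold changes of EPHA5 were 2.86 ± 0.34 (ipsilateral) and 3.55 ± 0.33 (contralateral). EPHB2, a receptor of B-type ephrins, was at 6.06 to 19.7 CPM in the ipsilateral isthmus and 1.59 to 6.11 CPM in the ipsilateral ampulla, so that only the lowest isthmus library lay inside the ampulla range, with log2 fold changes of 1.82 ± 0.19 and 1.87 ± 0.24. EPHB4 followed at 0.89 ± 0.15 and 0.89 ± 0.17. The receptors that were instead higher in the ampulla were EPHA2 (-1.07 ± 0.23 and -0.83 ± 0.23) and EPHB6 (-0.84 ± 0.12 and -1.11 ± 0.12), which lacks kinase activity. In all, 4 of 9 EPH receptors were DEGs higher in the isthmus and 2 of 9 in the ampulla on each side, while EFNA1, EFNA2, EPHA1, EPHB1 and EPHB3 were DEGs on neither side. With the animal as a block, EPHA7 was lost on the ipsilateral side (edgeR adjusted p = 0.0536, from 0.0405) and EPHB1 was gained in the contralateral isthmus (log2 fold change 0.51, edgeR adjusted p = 0.0394, from 0.0585).

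Netrins did not share a direction. NTN1, the classical secreted netrin, was higher in the isthmus by 1.16 ± 0.20 and 1.06 ± 0.27 (log2, ipsilateral and contralateral), as was its receptor UNC5B by 1.21 ± 0.13 and 0.98 ± 0.14. NTN4, a netrin of basement membranes that binds laminin, was higher in the ampulla, with log2 fold changes of -0.93 ± 0.21 and -0.41 ± 0.14. NTNG1, a membrane-anchored netrin that does not bind the classical netrin receptors, was higher in the isthmus on the contralateral side (1.38 ± 0.20, edgeR adjusted p = 1.55e-06) and had a log2 fold change of 0.07 ± 0.23 on the ipsilateral side (edgeR adjusted p = 0.832). UNC5C, another netrin receptor, was higher in the ipsilateral ampulla (-0.84 ± 0.19, edgeR adjusted p = 4.37e-04), and its contralateral value of -0.54 ± 0.28 was called only with the animal as a block (edgeR adjusted p = 0.121, or 0.0231 with it). UNC5CL was a DEG on the ipsilateral side (0.69 ± 0.20), and UNC50 had values of 0.06 ± 0.08 and 0.08 ± 0.16.

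The receptor UNC5D and the secreted semaphorin SEMA3D were too low for the count filter of the regional test, but their counts were nearly confined to isthmus libraries. UNC5D had at least 1 count in 14 of 14 contralateral and 14 of 14 ipsilateral isthmus libraries, with 2 to 59 and 1 to 18 counts per library. In the ampulla it had 0 counts in all 14 contralateral libraries, and 1 of 14 ipsilateral libraries held 4 counts. SEMA3D had 280 and 153 counts in all in the contralateral and ipsilateral isthmus, and 8 and 1 in the ampulla. Both genes reached the 1 CPM threshold only through the isthmus, so this pattern was in part set by how members were chosen.

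Over the members whose libraries did not overlap between regions, the shares were as follows. On the ipsilateral side, every isthmus library was above every ampulla library for 4 of the 52 members (SEMA6A, SEMA4D, PLXNA3 and PLXNB1) and for 3.1% of the 15382 genes of at least 1 CPM, and every ampulla library was higher for 3 members (SLIT3, EFNB1 and EFNA5) and 1.53% of genes. On the contralateral side the numbers were 8 members (SEMA6A, SEMA5A, SEMA4D, SEMA3D, PLXNA3, PLXNB1, EPHA5 and UNC5D) and 2.63% of genes, and 4 members (SLIT3, SEMA3E, EFNB1 and EFNA5) and 1.35% of genes. Of the 8, SEMA3D and UNC5D reached the 1 CPM threshold only through the isthmus (contralateral ampulla means 0.102 and 0 CPM). Their separation was thus in part set by that threshold, and nothing is read from it. Ciliated markers were higher in the ampulla, with 8 of 9 on the ipsilateral and 9 of 9 on the contralateral side lower in the isthmus and medians of -0.36 and -0.56 on the log2 scale. Epithelial markers were higher in the isthmus, with 6 of 6 on the ipsilateral and 3 of 6 on the contralateral side called. Of 4 secretory markers, 1 was called higher and 1 lower in the ipsilateral isthmus, and 1 higher and 0 lower in the contralateral isthmus. Single markers of muscle and stroma were also higher in the isthmus, with means of 49.4 and 30.3 CPM (ipsilateral and contralateral) against 1.34 and 0.96 CPM in the ampulla for MYH11, 15 and 52.4 against 0.17 and 0.482 CPM for LUM, and 33.3 and 14.6 against 11.9 and 8.21 CPM for COL6A3. LUM was at 0 in 27 of the 56 libraries. Other markers had lower means in the isthmus: ACTA2 (7.66 and 8.99 against 13.3 and 11.45 CPM) and DES (1.55 and 1.64 against 2.49 and 3.5 CPM). So did COL1A2 (12.1 and 15.7 against 20.6 and 23 CPM). Over the whole lists, smooth muscle markers gave 1 call higher and 1 lower in the isthmus on each side, and so did fibroblast markers. In all, 27 of 40 cell type markers tested (67.5%) were called between regions on the ipsilateral and 22 of 42 (52.4%) on the contralateral side. The part of cell composition in the members' differences was not tested.

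Partners and effectors of these families that are not members, 45 listed genes of which 43 were in the table, were also compared between regions. Of 32 tested, 15 were higher and 7 lower in the isthmus on the ipsilateral side, and 13 and 7 on the contralateral side. Of all genes tested, 51.6% and 45% were called in these fits. NRCAM, an adhesion molecule found in neuropilin complexes, was higher in the isthmus by 4.28 ± 0.38 and 5.86 ± 0.40 (log2, ipsilateral and contralateral). FLRT2, a membrane protein that binds UNC5 receptors including UNC5D, was higher by 2.16 ± 0.17 and 2.56 ± 0.14. DCC, the netrin receptor that draws axons towards NTN1, was lower in the isthmus, with log2 fold changes of -2.28 ± 0.42 and -1.35 ± 0.44. RND1, a small GTPase that binds plexins, had log2 fold changes of -3.54 ± 0.42 and -3.25 ± 0.42.

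The second comparison asked whether the side of the corpus luteum mattered. In the isthmus, every member called was lower on the ipsilateral side than on the contralateral side. In heifers 7 of 48 members tested were DEGs, all lower ipsilaterally, where 10% of all genes tested were DEGs and 4.34% were DEGs that were lower. In non-lactating cows 5 of 50 were DEGs, all lower, beside 5.11% of all genes called and 2.17% called lower. In lactating cows the 1 DEG of 50 was ROBO2, beside 0.187% called and 0.0432% called lower. With the animal as a block the counts were 10, 8 and 3 members, beside 14.1%, 7.48% and 2.32% of all genes called in the same fits, and among the blocked calls UNC5B in non-lactating cows was the exception in direction (log2 fold change 0.60, edgeR adjusted p = 0.0257). The median log2 fold change of the members was -0.37 in heifers, -0.24 in non-lactating cows and -0.16 in lactating cows, against -0.015, 0.0057 and -0.00094 over all genes tested, and 37 of 48, 33 of 50 and 33 of 50 members had negative values.

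**Figure D4:**
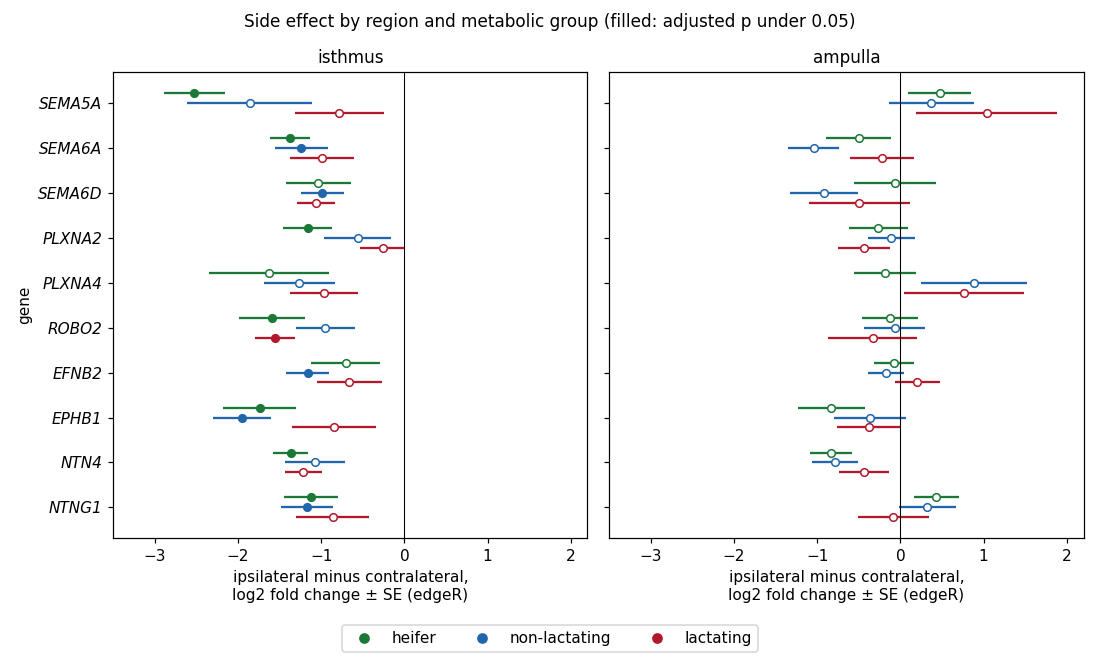
Log2 fold change of the ipsilateral minus the contralateral side (x axis, edgeR, with its SE) for the 10 members called in any comparison of sides in the isthmus or in the difference of the side effect between regions, in the isthmus (left) and ampulla (right) of heifers (n = 5 per side), non-lactating cows (n = 5) and lactating cows (n = 4); filled symbols have an adjusted p under 0.05. In the isthmus all 30 values are negative, and in the ampulla none is called.

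Among semaphorins, SEMA5A had the largest side difference in heifers. Its ipsilateral isthmus levels were 32.6, 12.7, 8.58, 29.6 and 9.22 CPM in heifers A to E, and its contralateral levels were 123, 147, 74.8, 91.3 and 86.1 CPM. The sides did not overlap, with a log2 fold change of -2.52 ± 0.37 (SE, n = 5 per side, edgeR adjusted p = 0.0056) that stayed called when each heifer was left out in turn. In non-lactating cows A to E the ipsilateral levels were 11.6, 3.41, 8.3, 2.93 and 50.4 CPM and the contralateral levels 36.6, 12.4, 142, 38.4 and 30.4 CPM; cow E had the higher level on the ipsilateral side, the groups overlapped, and the log2 fold change was -1.86 ± 0.75 (edgeR adjusted p = 0.172). In lactating cows it was -0.78 ± 0.54 (edgeR adjusted p = 0.634).

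SEMA6A was lower ipsilaterally in 13 of 14 animals, the exception being lactating cow D (74.1 against 67.9 CPM). In heifers A to E it was at 74.4, 66.3, 27.9, 81.7 and 68.5 CPM ipsilaterally and 222, 160, 137, 136 and 157 CPM contralaterally, with no overlap and a log2 fold change of -1.37 ± 0.24 (edgeR adjusted p = 0.00757). In non-lactating cows the log2 fold change was -1.24 ± 0.32 (edgeR adjusted p = 0.0428), with ipsilateral cow A at 136 CPM inside the contralateral range of 97.1 to 230 CPM, and the call was lost without cow B, C, D or E (edgeR adjusted p up to 0.194). In lactating cows it was -0.99 ± 0.39 (edgeR adjusted p = 0.338). SEMA6D was lower ipsilaterally in 14 of 14 animals, with log2 fold changes of -1.03 ± 0.39 in heifers, -0.99 ± 0.26 in non-lactating cows and -1.07 ± 0.23 in lactating cows. Only the value of non-lactating cows was called (edgeR adjusted p = 0.0479), and it was lost when any 1 of the 5 cows was left out (0.0605 to 0.169). With the animal as a block the values of heifers (edgeR adjusted p = 0.0124) and lactating cows (0.0292) were called too.

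The plexins that bind SEMA6A gave smaller or less certain values. PLXNA2 was a DEG in heifers, at 4.87 to 16.7 CPM ipsilaterally and 19.5 to 40.4 CPM contralaterally (log2 fold change -1.16 ± 0.30, edgeR adjusted p = 0.0282, lost without heifer A, B, C or E, up to 0.106), and had values of -0.56 ± 0.40 and -0.26 ± 0.28 in non-lactating and lactating cows. PLXNA4 was low throughout, at 0.195 to 3.79 CPM in the ipsilateral and 0.806 to 15.9 CPM in the contralateral isthmus. Its log2 fold changes were -1.63 ± 0.72, -1.26 ± 0.43 and -0.97 ± 0.41 in heifers, non-lactating and lactating cows, of which the second was called only with the animal as a block (edgeR adjusted p = 0.0391).

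ROBO2 was the member called in lactating cows. It was at 12.2, 14.2, 11.7 and 9.67 CPM in the ipsilateral and 48.3, 35.5, 34.7 and 21.6 CPM in the contralateral isthmus of lactating cows A to D, with no overlap and a log2 fold change of -1.56 ± 0.24 (n = 4 per side, edgeR adjusted p = 0.0473). The call was lost when any 1 of the 4 cows was left out, with the log2 fold change between -1.64 and -1.37 (edgeR adjusted p = 0.134 to 0.277). In heifers ROBO2 was also a DEG (-1.59 ± 0.40, edgeR adjusted p = 0.0263), with 4.45 to 16.2 CPM ipsilaterally and 10.5 to 47 CPM contralaterally, and the call was lost without heifer B, C or E (edgeR adjusted p up to 0.121). In non-lactating cows the value was -0.95 ± 0.35 (edgeR adjusted p = 0.14, or 0.0382 with the animal as a block).

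EPHB1, a receptor of B-type ephrins, was at 5.6, 2.84, 5.78, 4.4 and 4.56 CPM in the ipsilateral and 28, 9.32, 27.8, 12.4 and 10.7 CPM in the contralateral isthmus of non-lactating cows A to E. The sides did not overlap, and the log2 fold change of -1.95 ± 0.35 (edgeR adjusted p = 0.00891) stayed called with each cow left out. In heifers it was -1.74 ± 0.43 (edgeR adjusted p = 0.0261), lost without heifer A, B or E (up to 0.143), and in lactating cows -0.85 ± 0.50 (edgeR adjusted p = 0.554). EFNB2, a ligand of EPHB receptors, was a DEG in non-lactating cows (9.84 ± 2.0 CPM ipsilaterally and 21.9 ± 7.0 CPM contralaterally, SD, n = 5, log2 fold change -1.16 ± 0.26, edgeR adjusted p = 0.0252, lost without cow A, B, C or E, up to 0.133), with values of -0.71 ± 0.41 in heifers and -0.66 ± 0.39 in lactating cows.

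NTN4 was at 21, 22.9, 20.1, 25.4 and 18 CPM in the ipsilateral and 61.9, 63.1, 26.5, 64.9 and 57.8 CPM in the contralateral isthmus of heifers A to E. The lowest contralateral library, of heifer C, was just above the highest ipsilateral one, and the log2 fold change was -1.37 ± 0.21 (edgeR adjusted p = 0.0056), called with each heifer left out. The values were -1.07 ± 0.36 (edgeR adjusted p = 0.107, or 0.0138 with the animal as a block) in non-lactating and -1.22 ± 0.22 (edgeR adjusted p = 0.0766, or 0.00407) in lactating cows, whose ipsilateral libraries at 29.4 to 43.5 CPM lay below the contralateral ones at 66.5 to 126 CPM. NTNG1 was a DEG in heifers (-1.13 ± 0.32, edgeR adjusted p = 0.0458) and in non-lactating cows (-1.18 ± 0.31, edgeR adjusted p = 0.0482, or 0.0627 with the animal as a block), and was at -0.86 ± 0.44 in lactating cows. The NTNG1 calls were lost without heifer A, B, C or E (edgeR adjusted p up to 0.213) and without any 1 of the 5 non-lactating cows (0.0562 to 0.215).

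**Figure D5:**
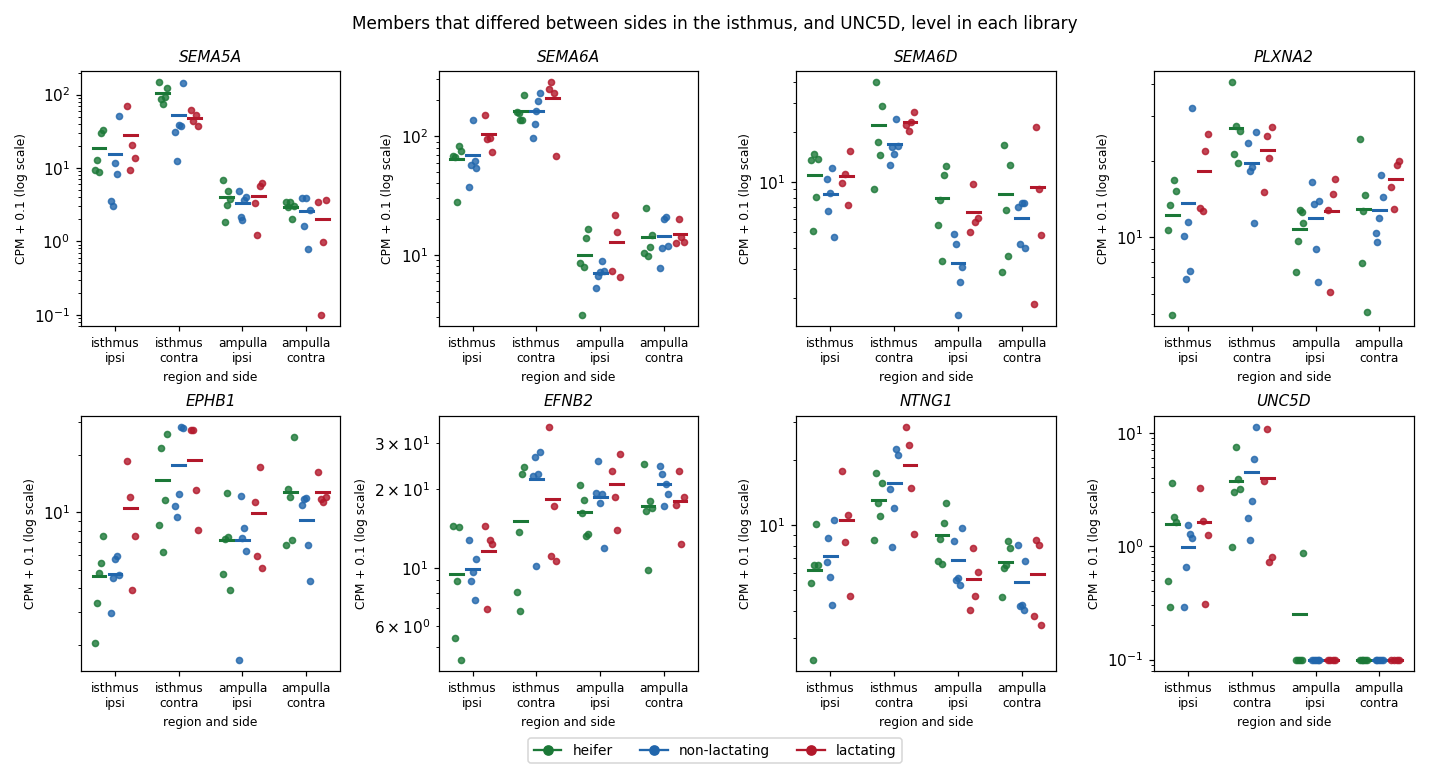
Level of 8 members in each library (y axis, CPM + 0.1, log scale) by region and side, with heifers in green, non-lactating cows in blue and lactating cows in red; points are libraries (n = 5, 5 and 4 per condition) and bars are group means. In the isthmus the ipsilateral group means lie below the contralateral ones for each gene shown, and UNC5D is at 0 in all but 1 ampulla library.

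Taking each animal as its own pair, 5 of the 52 members (EPHB1, NTN4, NTNG1, ROBO2 and SEMA6D) were lower in the ipsilateral isthmus in all 14 animals, as were 2.27% of the 15382 genes of at least 1 CPM. The reverse held for 0 members and 3% of genes. Cell type markers were called in the same comparisons as well, 7 of 39 tested in heifers (17.9%), 4 of 40 in non-lactating cows (10%) and 0 of 44 in lactating cows. Over the 3 groups, epithelial markers gave 3 calls higher and 1 lower, and endothelial, smooth muscle and macrophage markers together gave 1, higher on the ipsilateral side in non-lactating cows. Ciliated markers gave 2 calls higher and 1 lower, fibroblast markers 2 higher, and glial or neuronal markers 1 higher (the latter in heifers). The part of these cell types in the members' values was not tested. Endothelial markers summed to 13.7 to 59.1 CPM ipsilaterally and 16.9 to 124 CPM contralaterally in the isthmus, with KDR at means of 14.2 and 35.4 CPM, TEK at 8.9 and 11.6 CPM and PECAM1 at 1.97 and 3 CPM, while EMCN was at 4.37 and 1.38 CPM.

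Of the listed partners and effectors, DPYSL2, a cytoplasmic mediator of semaphorin signals, was higher in the ipsilateral isthmus of heifers (0.86 ± 0.24) and non-lactating cows (1.14 ± 0.22). NRCAM was lower ipsilaterally in non-lactating cows (-2.02 ± 0.32) and FLRT2 in heifers (-0.79 ± 0.14). In all, 3 of 31 were higher and 1 lower in heifers, 2 and 1 of 30 in non-lactating cows, and 0 of 30 were called in lactating cows. The shares of all genes called in these fits were 10%, 5.11% and 0.187%.

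In the ampulla no member was called between sides. The counts were 0 of 45 in heifers, 0 of 47 in non-lactating cows and 0 of 47 in lactating cows with edgeR, beside 0%, 0.0947% and 0% of all genes, and 0 in each group with DESeq2, beside 0.399%, 0.99% and 0.0636%. The number of members with an unadjusted p under 0.05 (edgeR) was 4, 5 and 0, beside 9.2%, 11.1% and 4.26% of all genes. The values nearest to a call were SEMA6A in non-lactating cows (-1.05 ± 0.30, edgeR adjusted p = 0.218) and NTN4 in heifers (-0.83 ± 0.25, edgeR adjusted p = 0.372) and non-lactating cows (-0.79 ± 0.27, edgeR adjusted p = 0.293). With the animal as a block, NTN4 in non-lactating cows was called (-1.03, edgeR adjusted p = 0.0458), as were 1.08% of all genes. That side effect rested on cows A, B, D and E, the only ones with a number on both sides. The ipsilateral library of cow B resembled heifer B more than cow B (r = 0.536 against 0.456). Ipsilateral NTN4 was lower in 10 of the 12 animals whose ampulla libraries share a number, and SEMA6A in 11 of 12. Without heifer B and non-lactating cow B the counts were 8 and 9 of 10.

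The side effect was then compared between regions in 1 model over the 56 libraries. It differed for 5 of 51 members tested, each more negative in the isthmus, where 6.89% of all genes were called and 2.28% were called and more negative in the isthmus. They were SEMA5A (difference of log2 side effects -2.36 ± 0.54, edgeR adjusted p = 0.00415), NTNG1 (-1.31 ± 0.30, edgeR adjusted p = 0.00423), PLXNA4 (-1.71 ± 0.50, edgeR adjusted p = 0.0248), ROBO2 (-1.18 ± 0.33, edgeR adjusted p = 0.0219) and EFNB2 (-0.82 ± 0.26, edgeR adjusted p = 0.041). Without the 4 doubtful ampulla libraries SEMA5A, NTNG1 and PLXNA4 stayed called, and ROBO2 (edgeR adjusted p = 0.0515) and EFNB2 (0.0876) did not. NTNG1 and SEMA5A stayed called with any 1 animal left out. The call of PLXNA4 was lost without heifer A or non-lactating cow A, C or D (edgeR adjusted p up to 0.0724), that of ROBO2 without heifer E or non-lactating cow C (up to 0.0693), and that of EFNB2 without any 1 of 7 animals (up to 0.0989). For NTN4 and SEMA6A the differences were -0.51 ± 0.25 and -0.61 ± 0.30 (edgeR adjusted p = 0.231 and 0.222), so that a difference of their side effects between regions was not shown.

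Whether the side effect differed between the 3 metabolic groups was tested in the same way within each region. The number of members called was 0 of 52 in the isthmus and 0 of 48 in the ampulla with edgeR and 0 in each with DESeq2, beside 0% of all genes in both. An unadjusted p under 0.05 (edgeR) was found for 1 and 0 members, beside 2.05% and 1.15% of all genes. The isthmus calls were thus fewer in lactating cows, with 4 animals, and no member had a detectable difference in its side effect between the groups.

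The last comparisons asked whether metabolic state mattered within a region and side. In the 12 comparisons of 2 groups, 0 members were called by edgeR, beside 0.0073% of all genes for non-lactating cows against heifers in the ipsilateral isthmus and 0% in the other 11. Between 1 and 11 members had an unadjusted p under 0.05 (edgeR), beside 3.57% to 11.8% of all genes. The largest count was 11 of 47, beside 11.8% of all genes, for non-lactating cows against heifers in the ipsilateral isthmus. DESeq2 called 5 values. They were 1 member for lactating cows against heifers and 3 for non-lactating cows against heifers in the ipsilateral isthmus, where it called 1.08% and 1.74% of all genes, and 1 for lactating cows against heifers in the contralateral isthmus, where it called 0.531%. NTN4 was higher in lactating cows than in heifers in the ipsilateral isthmus, at 29.4 to 43.5 CPM against 18 to 25.4 CPM with no overlap (log2 fold change 0.78 ± 0.15, edgeR adjusted p = 0.244, DESeq2 adjusted p = 0.00674). In the same tissue, DESeq2 but not edgeR called 3 genes between non-lactating cows and heifers. They were EPHA5 (-1.37 ± 0.32, edgeR adjusted p = 0.142, DESeq2 adjusted p = 0.00743), SEMA6C (-1.20 ± 0.30, 0.173 and 0.0247) and SLIT3 (2.24 ± 0.59, 0.184 and 0.0166). SEMA5A was lower in lactating cows than in heifers in the contralateral isthmus, at 36.6 to 61.4 CPM against 74.8 to 147 CPM with no overlap (-1.09 ± 0.22, edgeR adjusted p = 0.372, DESeq2 adjusted p = 0.00246). SLIT3 was at 0.257 to 2.16 CPM in heifers and 0.902 to 11.2 CPM in non-lactating cows of the ipsilateral isthmus, which overlapped, and EPHA5 (7.8 to 15.5 and 1.62 to 5.68 CPM) and SEMA6C (5.65 to 11.5 and 1.83 to 4.56 CPM) did not overlap. The share of all genes without overlap between these groups was not counted, and none of the 5 values was called by edgeR.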

How the data were processed

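The authors deposited 1 table of raw read counts per gene, not normalized, for 56 libraries of bovine oviduct epithelium. Per the labels, stranded libraries were made from total RNA, and the processing notes name bcl2fastq 1.8.4, TopHat2 2.0.13 and HTSeq 0.6.1. The table ends in 5 lines that name no gene (reads outside genes, ambiguous and the like), which entered neither library sizes nor tests. Column names gave each library's metabolic group, region, side and animal number, but not which numbered sample it is.

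Counts were tested with edgeR 4.0.16 (R 4.3.3; TMM, filterByExpr with a minimum count of 10, glmQLFit and glmQLFTest, Benjamini-Hochberg over all genes tested, adjusted p under 0.05), on the libraries of each comparison, with metabolic group as a covariate between regions. The SE is the log2 fold change divided by the square root of F. DESeq2 1.42.0, RLE factors, no filter, the animal number as a block and leaving out each animal were alternatives. The script was tested on simulated data. The genes, the partner list and the tests were chosen with earlier results of these data known.

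Libraries were paired by the animal number in the column names, which marks 1 animal, except that the 4 ipsilateral ampulla libraries named in the report resembled another animal than the numbered one. The 2 of these with a number of the other cow group were left out of the pair counts and correlations. The fits with the animal as a block kept all 4 under their numbers. Blocked values that use the ipsilateral ampulla therefore rest in part on doubtful pairs. The pairs' deviations from the condition means correlated with medians of 0.389 (sides, isthmus, 14 pairs), 0.266 (sides, ampulla, 12 pairs), 0.209 and 0.214 (regions, ipsilateral and contralateral) over 10616 genes. The 104 pairs of libraries of 1 condition differed by at least 5.2 in chi-square per degree of freedom, so none was a repeat. In 3 libraries 1 CPM is under 3 counts, which limits genes near that level.

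Genes named in the text were members called between sides in the isthmus, in the ampulla, between groups or in the difference of side effects, the 10 with the largest mean regional change in each direction among those called on both sides, and the SLIT, ROBO, netrin and UNC5 families. All other genes (among them SEMA3A, SEMA3D, SEMA3F, SEMA6C, PLXNB1, EPHB4, the partners and the markers) were named after their values were seen. Gene positions and sequences were not used here.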

Additional observations from a re-analysis of the deposited data

Results flagged for a closer look

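Single libraries lay apart from the others of their group in 10 of the 120 groups examined (10 genes in 12 conditions). The nominal rate is about 1 in 20. Libraries recur across genes, so the groups are not independent and no excess is read from this count. SEMA5A was at 50.4 CPM in the ipsilateral isthmus of non-lactating cow E (the others 2.93 to 11.5 CPM) and at 142.5 CPM in the contralateral isthmus of non-lactating cow C (12.4 to 38.4 CPM). In the same ipsilateral isthmus library of cow E, NTN4 was at 53.9 CPM (12.5 to 22.9 CPM) and PLXNA2 at 32.2 CPM (6.78 to 11.4 CPM), so that 3 of the 10 were from 1 library. SEMA6A was at 27.9 CPM in the ipsilateral isthmus of heifer C (66.3 to 81.7 CPM), at 221.9 CPM in the contralateral isthmus of heifer A (135.8 to 159.9 CPM) and at 136.5 CPM in the ipsilateral isthmus of non-lactating cow A (36.9 to 61.7 CPM). NTN4 was at 26.5 CPM in the contralateral isthmus of heifer C (57.8 to 64.9 CPM), PLXNA4 at 15.9 CPM in that of heifer A (0.806 to 4.12 CPM), and EPHB1 at 16.2 CPM in the contralateral ampulla of lactating cow C (11.2 to 11.9 CPM).

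The side effect differed between isthmus and ampulla for SEMA5A (-2.36 on the log2 scale), PLXNA4 (-1.71), NTNG1 (-1.31), ROBO2 (-1.18) and EFNB2 (-0.82). Among animals whose 2 ampulla libraries share a number and a group label, the side effect (per animal, log2 of CPM + 0.5, ipsilateral minus contralateral) had opposite signs in isthmus and ampulla for NTNG1 in non-lactating cows (mean of isthmus minus mean of ampulla -1.37, 5 and 4 animals), and for PLXNA4 (-1.98) and NTN1 (-0.40) in lactating cows (4 and 3 animals each). NTN1 also had opposite signs in the ampulla of non-lactating and lactating cows (non-lactating minus lactating -0.75, 4 and 3 animals). These 4 differences were not tested, and they depend on which library is taken as which animal. The lactating ipsilateral ampulla library that resembled lactating cow B had NTN1 at 3.38 CPM against 7.07 CPM in the contralateral ampulla of that cow, and PLXNA4 at 5.45 against 5.97 CPM. Counted as cow B, it would be lower ipsilaterally for both genes, so that the ampulla values of lactating cows would not all share a sign. For NTNG1 the doubtful library of non-lactating cow B (8.29 CPM, against 7.92 CPM contralaterally) is among the 4. The heifer library that resembled that cow was at 6.69 CPM, which would turn the sign for that cow.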

How the results depend on the processing

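Of 89 counts of called members under other settings, 79 were within 1.5 times the main count. The animal-number block changed the count from 5 to 8 (non-lactating isthmus), from 1 to 3 (lactating isthmus) and from 0 to 1 (non-lactating ampulla), and changed other single calls of members only as given beside the results, for EPHA7, SEMA3B, EPHB1 and SEMA6C between regions, and for ROBO1 and UNC5D between sides in heifers. DESeq2 gave 8 in the non-lactating and 3 in the lactating isthmus, and 2 in lactating cows with no filter. DESeq2 gave 1 member for lactating cows against heifers in the ipsilateral and 1 in the contralateral isthmus, and 3 for non-lactating cows against heifers in the ipsilateral isthmus. The difference of side effects gave 3 without the 4 doubtful libraries. Leaving out 1 animal gave 3 (without heifer B or E) to 7 members in the heifer isthmus, 1 (without cow B or C) to 4 in the non-lactating isthmus, 0 to 0 in the lactating isthmus without any 1 cow, and 2 (without non-lactating cow C) to 6 for the difference of side effects. Across 1154 values of named genes, 0 changed sign and 66 lost their call. The causes were not tested. Depth limits members near 1 CPM, and the ipsilateral ampulla is limited by its 4 doubtful libraries.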
